A study of Mus musculus with 8 samples.

Results

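The genes described are 40 that build ribosomes or make up the nucleolus, the nuclear body where ribosomal RNA (rRNA) is made. They were taken as a fixed list of gene symbols and matched to the Ensembl IDs of a table of raw read counts. All 40 were found among the 15917 genes of the table, and all 40 passed the filter on low counts. The smallest count of any of them in any library was 196 (Wdr12) and the largest 23566 (Ncl).

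mRNA was sequenced from cultured eosinophils, the granule-bearing leukocytes of type 2 immunity, in 8 libraries, 2 for each of 4 groups. One experiment set IFN-γ plus TNF-α at 15 ng/mL (E1) against medium without cytokine (CN). The other set a type 2 mixture, IL-33 at 30 ng/mL plus GM-CSF, IL-4 and IL-5 at 10 ng/mL (E2), against IL-5 at 10 ng/mL on its own (E0). All groups came from blood of C57BL/6 mice that the protocol names as IL-5 transgenic (line NJ.1638), while the genotype label of every sample reads WT. T and B cells were depleted with CD90 and B220 beads, purity by stain was above 97%, and culture lasted 18 h. No age or sex is labelled. The labels do not say how many animals a library came from, and p-values measure the spread between these libraries only.

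Library totals ran from 60809057 to 95065752 counts. Transcripts of 4 Y-linked genes summed to 185 to 245 CPM (read counts scaled to a common library size) in the libraries numbered 1 and to 0.541 to 1.49 CPM in those numbered 2. Xist had 0.0527 to 0.193 CPM in the libraries numbered 1 and 796 to 1140 CPM in those numbered 2. The 2 libraries of every group therefore differ in sex, cannot come from 1 and the same animal, and carry that difference in the spread behind the tests. The 12 eosinophil markers, among them Epx, Prg2, Siglecf and Ccr3, were detected in every group and summed to 4566 to 7955 CPM over the 8 libraries. In bulk RNA, fewer cells of a type and less RNA per cell cannot be told apart.

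Ribosome production begins in the nucleolus, where RNA polymerase I (Pol I) copies a long rRNA precursor. Small nucleolar ribonucleoproteins (snoRNPs) guide its chemical modification, those of the box C/D class placing methyl groups and those of the box H/ACA class converting uridines to pseudouridine. The small subunit processome folds and cuts the part that becomes the 40S subunit, another set of factors matures the 60S subunit, and the ribosomal proteins join along the way. The work is costly for a cell, is tied to growth, and is a well known target of MYC, whereas circulating granulocytes do not divide.

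Among the 40 genes, levels per length (CPM per kilobase of annotated exon, RPKM) averaged over the 4 groups were highest for Npm1 (50.9), Noc2l (31.1) and Ncl (26.3) and lowest for Wdr12 (0.321). The length joins every annotated exon of a gene, not those of 1 transcript, and was 10188 bases for Ncl, 11955 for Wdr12 and 2867 for Noc2l. The order depends on it: in CPM, Ncl was above Noc2l in every group, with means of 276 and 94.5 in E1. Npm1, nucleophosmin, is a histone and ribosome chaperone of the nucleolus, and Ncl, nucleolin, is a nucleolar RNA-binding protein. The 3 Pol I subunits were low on the same scale, at 5.78 for Polr1c, 1.66 for Polr1a and 1.55 for Polr1b. All other values below are CPM scaled by the trimmed mean of M values (TMM), and fold changes are log2 values ± SE. A gene is said to have risen or fallen where its adjusted p in edgeR's quasi-likelihood test, taken over all 15913 genes tested, was below 0.05.

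In E1 versus CN, which asks what IFN-γ and TNF-α changed, 4 of the 40 genes rose and 0 fell. All 4 belong to 40S assembly, namely Noc4l, Wdr43, Rcl1 and Ltv1. Over all genes tested, 9.19% were called higher and 8.08% lower, beside 10% higher and 0% lower of the 40 genes. With the replicate number, which goes with sex, as a block, 14 of the 40 (35%) were higher and 1 lower, beside 17.5% higher and 17.2% lower of all genes. Besides the 4 above, those higher with the block were Polr1c, Gar1, Nop10, Npm1, Ddx21, Mybbp1a, Rrp1, Rrs1, Pes1 and Noc2l. None of these belongs to 40S assembly, so the limit of the rises to that role did not hold with the block. At an unadjusted p below 0.05 there were 11 higher and 1 lower, and the share over all genes at that cut was not taken. Both DESeq2 and limma-voom called 4 of the 40 higher (10%) and 0 lower. Of all genes, DESeq2 called 10.6% higher and 9.27% lower, and limma-voom 9.39% and 8.14%. The median change of the 40 genes was 0.15, beside -0.01 over all genes tested. The libraries of the 2 groups did not overlap for 22 of the 40, of which 20 were higher and 2 lower in E1, where over all genes 26.5% were higher and 27.5% lower in this sense. With library totals alone as the scaling the median of the 40 genes was 0.06 and that of all genes -0.11, and the calls over all genes were 1190 higher and 1891 lower in place of 1463 and 1286. The call of 0 lower genes did not hold in 3 fits with 1 library left out, where Bysl (without CN replicate 2 or E1 replicate 1) or Polr1a (without E1 replicate 2) was called lower.

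Noc4l (ENSMUSG00000033294, chromosome 5, 110648418 to 110653417), a nucleolar factor of small subunit assembly, had the largest change. It had 28.99 and 26.5 CPM in the E1 libraries, against 13.1 and 11.2 CPM in the CN libraries. Its log2 fold change was 1.19 ± 0.11 (adjusted p = 0.000189), and every E1 library stood above both CN libraries. Wdr43 (chromosome 17, 71615895 to 71659031), a WD-repeat protein of the processome that binds the early precursor, had 30.9 and 28.6 CPM in E1, against 16.5 and 16.9 CPM in CN (0.83 ± 0.09, adjusted p = 0.000276). Rcl1 (chromosome 19, 29101375 to 29143929), a cyclase-like protein of the processome, had 5.90 and 6.27 CPM in E1, against 3.06 and 3.45 CPM in CN (0.90 ± 0.17, adjusted p = 0.00664). These 3 rises were called under each of the alternatives tried in which the gene was tested. Ltv1 (chromosome 10, 13178140 to 13193168), a factor that leaves the late 40S precursor, had 18.7 and 16.6 CPM in E1, against 13.9 and 11.8 CPM in CN (0.45 ± 0.12, adjusted p = 0.0338). Ltv1 lost its call without CN replicate 2 or E1 replicate 1, with the 4 libraries of the contrast alone and with library totals as the scaling (adjusted p up to 0.164).

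In the full fit without the block, the other 36 genes were not called in E1 versus CN, and 5 of the 6 role groups held no called gene. Polr1a, the catalytic subunit of Pol I, had 15.8 and 20.3 CPM in E1, against 20.9 and 20.6 CPM in CN (-0.20 ± 0.12, adjusted p = 0.304). Polr1c, a subunit shared by Pol I and Pol III, had 16.1 and 15.6 CPM in E1, against 11.6 and 13.9 CPM in CN (0.31 ± 0.11, adjusted p = 0.0982). Fbl, fibrillarin, the methyltransferase of the box C/D particles, had 63.2 and 50.1 CPM in E1, against 61.2 and 54.1 CPM in CN, and the groups overlapped. Its partner Nop58 had 13.7 and 12.9 CPM in E1, against 12.3 CPM in each CN library (0.10 ± 0.09, adjusted p = 0.508). For the box H/ACA particles the changes ran from -0.11 for Dkc1, dyskerin, the pseudouridine synthase, to 0.37 for Gar1, a core protein of the particle. Dkc1 had 6.07 and 5.71 CPM in E1, against 5.93 and 6.77 CPM in CN. Gar1 had 6.02 and 5.43 CPM in E1, against 4.42 and 4.47 CPM in CN (adjusted p = 0.139), so its groups did not overlap.

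The nucleolar scaffolds were likewise not called in E1 in the full fit without the block. Npm1 had 152 and 155 CPM in E1, against 112 and 144 CPM in CN (0.26 ± 0.11, adjusted p = 0.148). Ncl had 274 and 278 CPM in E1, against 248 and 276 CPM in CN (0.07 ± 0.07, adjusted p = 0.563). For Npm1 the E1 libraries lay above both CN libraries, and for Ncl they overlapped. Gnl3, nucleostemin, a nucleolar GTP-binding protein, had the smallest change of this role (0.07), with 6.76 and 6.23 CPM in E1, against 6.35 and 6.02 CPM in CN. Among the 10 genes of 60S assembly the changes ran from -0.06 for Wdr12, which forms a complex with Pes1 and Bop1, to 0.35 for Rrs1. Wdr12 had 3.12 and 2.67 CPM in E1, against 2.94 and 3.09 CPM in CN. Rrs1, which takes part in placing the small 5S particle in the subunit, had 6.69 and 6.61 CPM in E1, against 5.46 and 4.94 CPM in CN (0.35 ± 0.12, adjusted p = 0.0940). The other members of this role, Nop2, Nop16, Rrp1, Bop1, Pes1, Noc2l, Noc3l and Nip7, lay between -0.02 and 0.17.

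**Figure D1:**
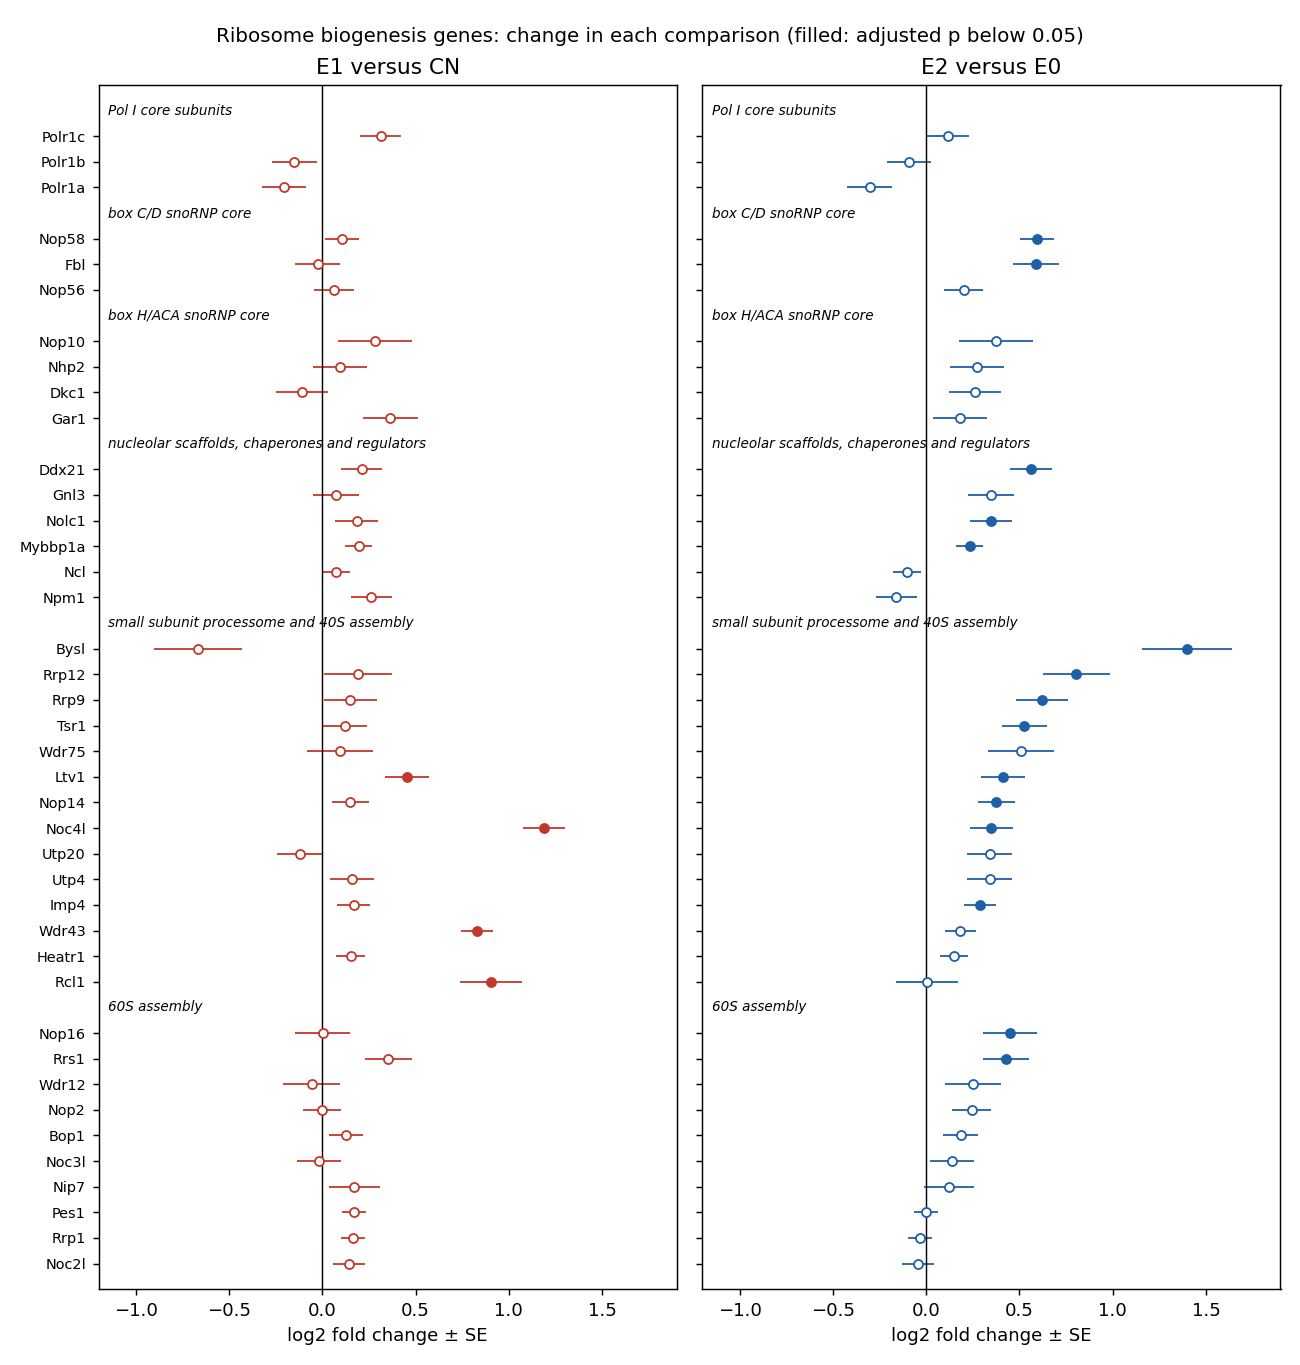
Log2 fold change ± SE of each of the 40 genes, grouped by role, in E1 versus CN (left) and E2 versus E0 (right), from 2 libraries a group; filled points have an adjusted p below 0.05. In this fit, without the replicate block, the 4 filled points on the left are all in 40S assembly. The 15 filled points on the right spread over 4 of the 6 roles and all lie above 0.

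In E2 versus E0, which asks what GM-CSF, IL-4 and IL-33 added to IL-5, 15 of the 40 genes rose and 0 fell. Of the 14 genes of 40S assembly 8 rose, of the 6 scaffolds and regulators 3 (Ddx21, Nolc1 and Mybbp1a), of the 3 box C/D genes 2 (Nop58 and Fbl) and of the 10 genes of 60S assembly 2 (Nop16 and Rrs1). None of the 3 Pol I subunits and none of the 4 box H/ACA genes was called in the full fit. Over all genes tested, 17% were called higher and 18.5% lower, beside 37.5% higher and 0% lower of the 40 genes. At an unadjusted p below 0.05 there were 20 higher and 1 lower, and the share over all genes at that cut was not taken. DESeq2 called 16 of the 40 higher (40%, beside 18% of all genes) and 0 lower. The counts were 17 and 0 by limma-voom (42.5% higher, beside 17.6% of all genes). With library totals as the scaling, edgeR called 11 higher (27.5%, beside 16% of all genes) and 0 lower. With the replicate number as a block, 26 of the 40 (65%) were higher and 1, Polr1a, lower. Of all genes, 26% were higher and 27.5% lower there. With the 4 libraries of the contrast alone, 18 of the 40 (45%) were higher and 1, Polr1a, lower. Of all genes, 19.8% were higher and 19.9% lower in that fit. The median change was 0.27, beside -0.02 over all genes tested, and 30 of the 40 genes had both E2 libraries above both E0 libraries, where 35.9% of all genes did. In 4 genes both E2 libraries lay below both E0 libraries (37.2% of all genes). The changes were small, and apart from Bysl the largest was 1.75-fold.

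The number of members called in E2 versus E0 moved with the libraries. It was 4 without E0 replicate 1, 5 without E2 replicate 1, 6 without E2 replicate 2 and 12 without E0 replicate 2, with 0 lower each time. As shares of the 40 genes called higher these are 10%, 12.5%, 15% and 30%, beside 10%, 11%, 9.86% and 11.9% of all genes in the same fits. The median of the 40 genes stayed between 0.22 and 0.36 in those 4 fits.

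Bysl (ENSMUSG00000023988, chromosome 17, 47599331 to 47611492), bystin, a factor needed for the 40S subunit, had the largest change of the 40, but its reads may not be its own. It had 160 and 177 CPM in the E2 libraries, against 57.4 and 70.3 CPM in the E0 libraries (1.40 ± 0.24, adjusted p = 0.00285). With IFN-γ and TNF-α it had 62.8 and 41.1 CPM in E1, against 100 and 64.8 CPM in CN (-0.67 ± 0.24, adjusted p = 0.0998). Its exons share 361 bases with those of Ccnd3, the cyclin D3 gene on the opposite strand. The labels name a stranded mRNA kit, and the strand setting of the counting is not given in the sources used here. Ccnd3 had 663 and 695 CPM in E2, against 269 and 283 CPM in E0, a log2 fold change of 1.30 (adjusted p = 0.00136). Ccnd3 had 266 and 196 CPM in E1, against 467 and 319 CPM in CN (-0.77, adjusted p = 0.0257). The ratio of Bysl to Ccnd3 stayed between 0.203 and 0.254 in all 8 libraries. Over the other 9 members with an abundant overlapping gene, the highest ratio was 1.41 to 3.45 times the lowest, beside 1.25 times for Bysl. The part of Ccnd3 reads in the values of Bysl was not tested. Other called members also overlap a gene on the opposite strand, among them Rrp9 with Parp3 (20 shared bases, Parp3 0.92 in E2 versus E0), Mybbp1a with Spns2 (131 shared bases, Spns2 0.48) and Tsr1 with Srr (1240 shared bases). Srr, with 7223 counts in all, was left out of the ratios above, which took abundant genes only. With Bysl left out, 14 of 39 genes rose in E2 versus E0.

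**Figure D2:**
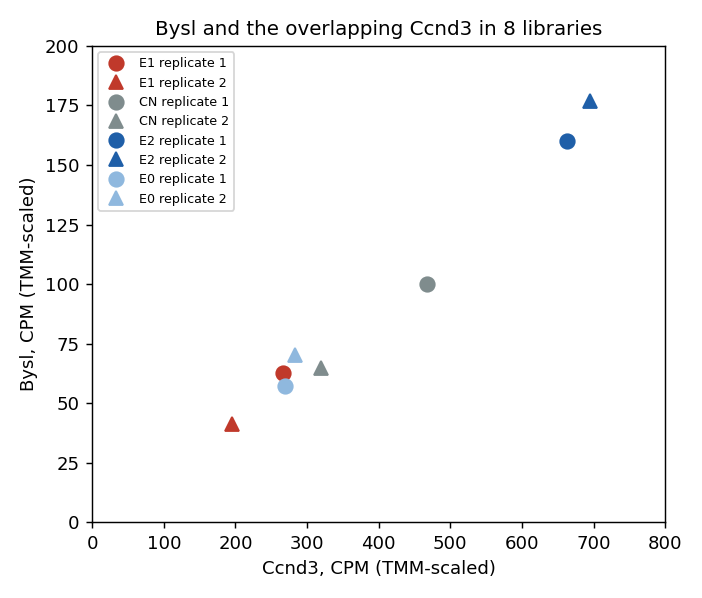
Level of Bysl against that of Ccnd3, both in TMM-scaled CPM, in the 8 libraries, coloured by group with a circle for replicate 1 and a triangle for replicate 2. Bysl ran from 41.1 to 177 CPM and Ccnd3 from 196 to 695 CPM, and the ratio of the 2 stayed between 0.203 and 0.254.

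Besides Bysl, the largest rises in 40S assembly were in Rrp12, Rrp9 and Tsr1. Rrp12 (chromosome 19, 41862851 to 41896173), a repeat protein that takes part in maturation and export of the subunits in yeast, had 12.7 and 10.8 CPM in E2, against 6.47 and 6.97 CPM in E0 (0.81 ± 0.18, adjusted p = 0.00965). Rrp9 (chromosome 9, 106475963 to 106485424), a protein of the U3 particle that the processome is built on, had 22.1 and 21.1 CPM in E2, against 13.7 and 14.4 CPM in E0 (0.62 ± 0.14, adjusted p = 0.0104). Tsr1 (chromosome 11, 74898071 to 74909342), a GTPase-like factor on the late 40S precursor, had 14.1 and 15.2 CPM in E2, against 9.30 and 11.03 CPM in E0 (0.53 ± 0.12, adjusted p = 0.0100). In each of these genes both E2 libraries stood above both E0 libraries. Rrp12 and Rrp9 were not called without E0 replicate 1 or E2 replicate 1, and Tsr1 not without E0 replicate 1 or E2 replicate 2 (adjusted p up to 0.0737).

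Ltv1 rose again in the second experiment, with 22.5 and 24.9 CPM in E2, against 16.5 and 19.0 CPM in E0 (0.41 ± 0.12, adjusted p = 0.0275). Noc4l had 15.8 and 15.7 CPM in E2, against 11.4 and 13.4 CPM in E0, a smaller change than in E1 (0.35 ± 0.11, adjusted p = 0.0451). The processome proteins Nop14 (0.38, adjusted p = 0.0191) and Imp4 (0.29, adjusted p = 0.0334) rose as well. Each of these 4 calls was lost in at least 3 of the 4 fits with 1 library left out. Noc4l and Imp4 also lost theirs with library totals as the scaling, and Noc4l under limma-voom. Rcl1, called in E1, had 4.63 and 4.95 CPM in E2, against 5.38 and 4.20 CPM in E0, and the groups overlapped. Heatr1, Wdr43, Utp4, Utp20 and Wdr75 of the same role had changes of 0.15 to 0.51 that were not called in the full fit, the largest in Wdr75. Wdr75 was called in 4 of 11 alternative fits. Of 12 alternatives, Utp20 was called in 3, Utp4 in 2, and Heatr1 and Wdr43 in 1 each.

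Among the snoRNP genes, the box C/D pair Nop58 and Fbl rose. Nop58 (chromosome 1, 59684971 to 59719044) had 27.0 and 30.5 CPM in E2, against 18.5 and 19.6 CPM in E0 (0.59 ± 0.09, adjusted p = 0.00168). Fbl (chromosome 7, 28169710 to 28179269) had 43.8 and 47.3 CPM in E2, against 29.7 and 30.8 CPM in E0 (0.59 ± 0.12, adjusted p = 0.00664). Both were called in every fit tried. Their partner Nop56 had 33.7 and 35.8 CPM in E2, against 28.95 and 31.6 CPM in E0 (0.20 ± 0.11, adjusted p = 0.183), so its libraries did not overlap and it was not called. The introns of Nop56 and Nop58 also carry snoRNA genes, and the table lists snoRNA rows inside annotated exons of Nop56. The 4 box H/ACA genes, Gar1, Dkc1, Nhp2 and Nop10, had changes of 0.18 to 0.37 that were not called in the full fit. Nop10 was called in 2 and Nhp2 in 1 of the 12 alternative fits. Gar1 had 5.90 and 6.61 CPM in E2 and 5.07 and 5.96 CPM in E0, which overlap. Nop10, a small protein of that particle, had 12.3 and 13.3 CPM in E2, against 9.50 and 10.2 CPM in E0 (0.37 ± 0.20, adjusted p = 0.175).

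Among the nucleolar scaffolds and regulators, Ddx21 led. Ddx21 (chromosome 10, 62580251 to 62602281), an RNA helicase that binds rRNA and snoRNAs, had 87.2 and 94.6 CPM in E2, against 58.1 and 65.1 CPM in E0 (0.56 ± 0.11, adjusted p = 0.00579). It was called in every fit tried. Nolc1, a chaperone of snoRNPs (0.35, adjusted p = 0.0465), and Mybbp1a, a nucleolar regulator of rRNA synthesis (0.23, adjusted p = 0.0358), rose less. Mybbp1a was called in none and Nolc1 in 1 of the 4 fits with 1 library left out, and neither with library totals as the scaling. Gnl3 had 10.6 and 12.1 CPM in E2, against 8.63 and 9.18 CPM in E0 (0.35 ± 0.12, adjusted p = 0.0584). Npm1 and Ncl had changes below 0. Npm1 had 118 and 129 CPM in E2, against 137 and 139 CPM in E0 (-0.16 ± 0.11, adjusted p = 0.286). Ncl had 251 and 264 CPM in E2, against 276 CPM in each E0 library (-0.10 ± 0.07, adjusted p = 0.311). In both genes the E2 libraries lay below the E0 libraries, by an amount the test did not call.

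Of the 60S factors, Nop16 and Rrs1 rose. Nop16 (chromosome 13, 54584185 to 54590090), a nucleolar protein whose yeast counterpart acts in 60S assembly, had 8.76 and 9.62 CPM in E2, against 6.97 and 6.49 CPM in E0 (0.45 ± 0.15, adjusted p = 0.0432). Rrs1 (chromosome 1, 9545408 to 9547455) had 9.70 and 10.3 CPM in E2, against 7.81 and 7.05 CPM in E0 (0.43 ± 0.12, adjusted p = 0.0278). Both lost the call whenever 1 library was left out. The other 8 ran from -0.04 for Noc2l, which had 80.9 and 92.5 CPM in E2, against 83.9 and 94.7 CPM in E0, to 0.25 for Wdr12, with Rrp1, Pes1, Nip7, Noc3l, Bop1 and Nop2 between them. Of the Pol I subunits, Polr1a had 17.4 and 18.6 CPM in E2, against 21.9 and 22.4 CPM in E0 (-0.30 ± 0.12, adjusted p = 0.0834). Polr1c had 11.95 and 13.0 CPM in E2, against 11.6 and 11.4 CPM in E0 (0.12 ± 0.11, adjusted p = 0.448). The change of Polr1b, the other large subunit, was -0.09.

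**Figure D3:**
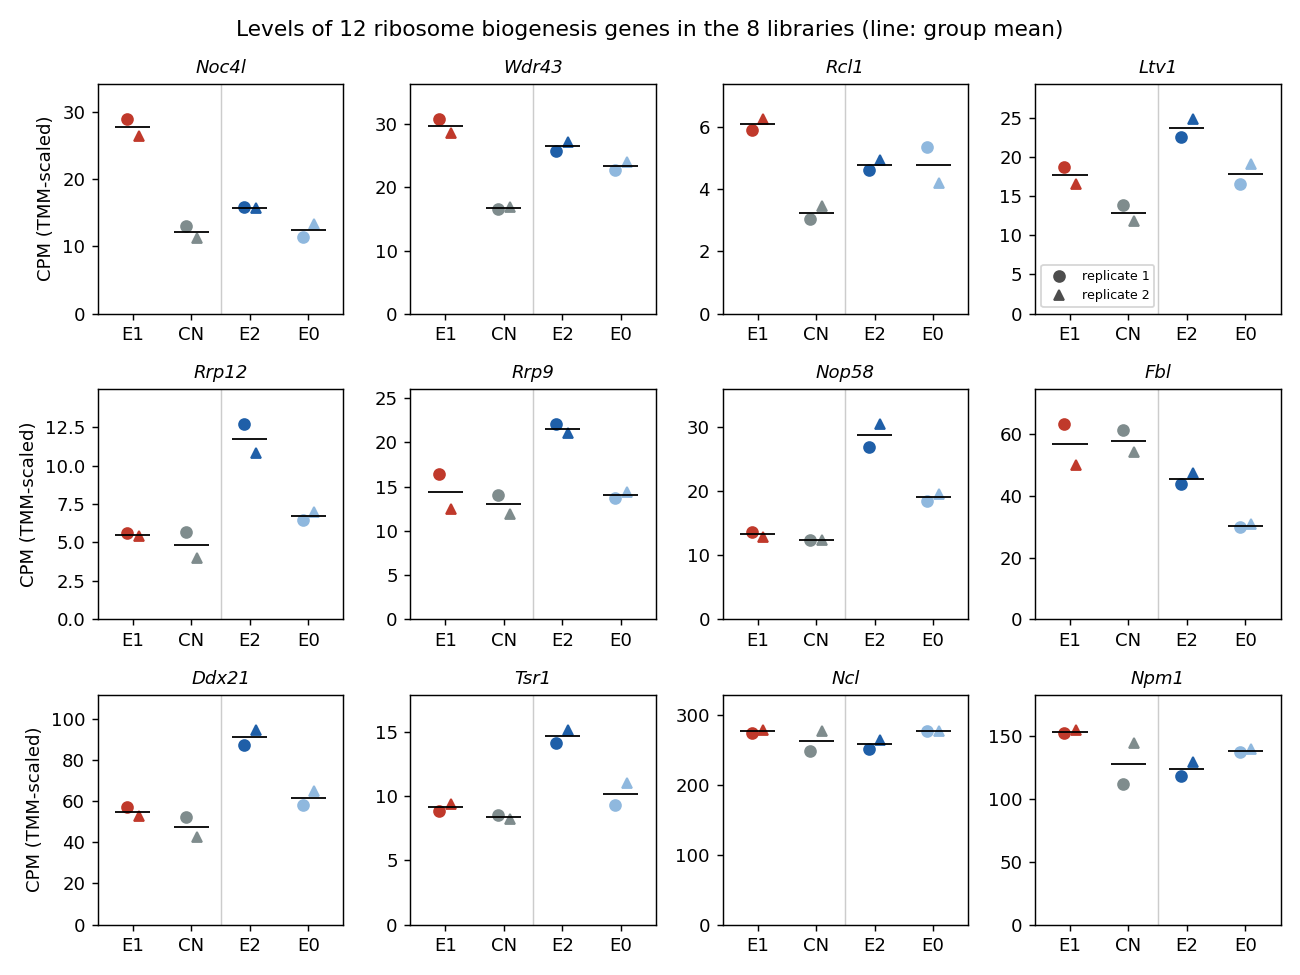
TMM-scaled CPM of 12 of the genes in each library, with E1 and CN left of the grey line and E2 and E0 right of it; circles are replicate 1, triangles replicate 2 and black lines group means, and each vertical axis starts at 0. Noc4l, Wdr43 and Rcl1 are higher in E1 than in CN, and Rrp12, Rrp9, Nop58, Ddx21 and Tsr1 are higher in E2 than in E0. Ncl lies between 248 and 278 CPM in all 8 libraries.

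The response to the type 2 cytokines was set against the response to IFN-γ and TNF-α by testing the difference of the 2 log2 fold changes (E2 minus E0, less E1 minus CN). Of the 40 genes, 6 differed, which is 15% beside 25.2% of all genes tested. Over all genes, 1798 differences were positive and 2220 negative (2138 and 1866 with library totals as the scaling). The change was higher in E2 versus E0 for Bysl (2.07 ± 0.34, adjusted p = 0.00306), Fbl (0.61 ± 0.17, adjusted p = 0.0315) and Nop58 (0.49 ± 0.13, adjusted p = 0.0259). It was higher in E1 versus CN for Rcl1 (-0.90 ± 0.23, adjusted p = 0.0245), Noc4l (-0.84 ± 0.16, adjusted p = 0.00644) and Wdr43 (-0.65 ± 0.12, adjusted p = 0.00563). Bysl, Noc4l and Wdr43 kept this call in every fit tried, whereas Fbl, Nop58 and Rcl1 lost it in 5 or 6 of the 8 fits with 1 library left out. The median difference of the 40 genes was 0.13 in the full fit, beside -0.02 over all genes tested. With 1 library left out it ran from 0.013 (without CN replicate 1) to 0.195 (without E0 replicate 2). The controls themselves differed in level, as for Fbl with 57.7 ± 5.02 CPM in CN and 30.3 ± 0.750 CPM in E0 (SD, n = 2 each), and IL-5 cannot be told apart from the experiment there.

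Because MYC binds the E-box CACGTG, the promoters of the 40 genes were searched for these letters, which read the same on both strands. RefSeq windows on GRCm38.p6, from 250 bases before to 50 bases after the annotated start, were matched for 35 of the 40 by symbol. Fbl, Npm1, Rrp12, Rrs1 and Bop1 were not matched. CACGTG stood in the windows of 9 of the 35 (25.7%), against 10.0% of the 10333 genes of the count table that have a window and 7.24% of all 27025 genes that have one. It stood in 4 of the 12 members with a window that rose in E2 (33.3%) and in 5 of the 23 that were not called there (21.7%). The letters CCGGAAG, the core of an ETS-type site, on either strand, stood in 12 of the 35 (34.3%), against 18.3% of the genes of the table. TATAAA on either strand stood in 2 of the 35 (5.71%), against 7.29%. A match is only a run of letters, and binding was not measured.

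The stretch around each CACGTG, in capitals, is printed 5′ to 3′ on the gene's strand to show where it falls and how the flanks differ. The 4 genes that rose in E2 come first and the 5 that were not called there follow.
Tsr1, chr11:74898092-74898121, plus strand: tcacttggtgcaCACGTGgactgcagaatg
Ltv1, chr10:13193092-13193121, minus strand: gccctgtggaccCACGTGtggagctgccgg
Imp4, chr1:34439696-34439725, plus strand: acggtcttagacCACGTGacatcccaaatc
Mybbp1a, chr11:72441347-72441376, plus strand: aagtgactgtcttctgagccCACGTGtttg
Utp20, chr10:88826765-88826794, minus strand: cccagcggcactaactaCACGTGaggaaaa
Utp4, chr8:106893643-106893672, plus strand: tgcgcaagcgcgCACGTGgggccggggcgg
Nop2, chr6:125131811-125131840, plus strand: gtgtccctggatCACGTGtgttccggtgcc
Wdr43, chr17:71616220-71616249, plus strand: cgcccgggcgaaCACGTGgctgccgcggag
Pes1, chr11:3963965-3963994, plus strand: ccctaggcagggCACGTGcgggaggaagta
In 7 of the 9 the letters begin after the annotated start, at base 3 in Pes1 to base 41 in Mybbp1a. They begin 121 bases before the start in Imp4 and 60 bases before it in Nop2. Changes in E2 among these 9 genes ran from 0.53 for Tsr1 to -0.003 for Pes1.

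Myc itself was scarce and rose in E2. It had 3.78 and 3.36 CPM in E2, against 0.837 and 1.13 CPM in E0 (1.85 ± 0.40, adjusted p = 0.00892). In the experiment with IFN-γ and TNF-α it had 0.848 and 0.327 CPM in E1, against 0.949 and 0.613 CPM in CN, and the groups overlapped. Of the 11 measured genes of the MYC network, 2 rose (18.2%) and 4 fell (36.4%) in E2, beside 17% and 18.5% of all genes. Mxd4 (-1.26) and Mnt (-0.67), repressors that compete with MYC for its partner Max, fell, as did Max itself (-0.86), and Mlx rose by 0.39. In E1, Mxd1 fell by 0.36 and edgeR called no other gene of the network, where DESeq2 and limma-voom each called 1 higher and 1 lower.

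Other ribosome assembly genes, from lists of Pol I, 40S and 60S factors that share no gene with the 40, were counted in the same way. Of 87 measured, 29 rose (33.3%), 4 fell (4.6%) and 54 were not called in E2, with a median of 0.24. Of all genes tested, 17% rose and 18.5% fell there. Rises included Pno1 (1.13), which helps form the 40S platform, the processome protein Nol10 (0.85), the 60S factors Urb1 (0.80) and Rpf2 (0.79), and Tcof1 (0.32), treacle, which supports rRNA transcription. Krr1 (-1.05) and Imp3 (-0.53) of the processome and the 60S factors Las1l (-0.38) and Nsa2 (-0.36) fell. These counts moved with the libraries as those of the 40 genes did. In each fit with 1 library left out, fewer genes of each list were called higher in E2, as were fewer of all genes. The medians in those fits were 0.03 to 0.15 for the Pol I list, 0.14 to 0.26 for 40S and 0.24 to 0.32 for 60S. In E1, 4 of the 87 rose (4.6%) and 1 fell (1.15%), beside 9.19% and 8.08% of all genes, with a median of 0.11. Rrn3, which brings Pol I to the rRNA promoter, had the largest rise there (0.77 ± 0.08, adjusted p = 0.000254), and rose by 0.30 in E2. Of the 11 measured genes of the RNA exosome, which trims rRNA precursors, 5 rose in E2, among them Exosc9 (0.65), and Exosc5 fell by 0.64. Fewer exosome genes were called higher in each fit with 1 library left out, where the median of the list was 0.23 to 0.34.

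The ribosomal proteins, the cargo of this machinery, went the other way in E2. Of 30 measured, 23 fell (76.7%, beside 18.5% of all genes), 1 rose and 6 were not called, with a median of -0.46. Rpl3, the gene that rose, had 110 and 103 CPM in E2, against 82.2 and 85.9 CPM in E0 (0.34 ± 0.07, adjusted p = 0.00761). Summed over the 30 genes, the level was 4713 and 4704 CPM in E2, against 6948 and 6520 CPM in E0. Summed over the 40 assembly genes it was 1530 and 1624 CPM in E2, against 1312 and 1394 CPM in E0. The direction of the ribosomal proteins held under each scaling tried, with 23 or 24 of 30 lower, and 15 of 30 were lower without E0 replicate 1. In E1 the 40 assembly genes summed to 1430 and 1359 CPM, against 1289 and 1273 CPM in CN. Of the 30 ribosomal protein genes, 4 rose there (13.3%, beside 9.19% of all genes) and 0 fell by edgeR. There were 12 and 0 at an unadjusted p below 0.05 (share over all genes not taken), 6 and 0 by DESeq2, and 4 and 0 by limma-voom. With the replicate block there were 14 and 0, beside 17.5% higher and 17.2% lower of all genes. All 30 changes were above 0 in the full fit, with a median of 0.19, beside 0.15 for the 40 assembly genes. With library totals as the scaling the median of the 30 was 0.09. The 4 rises were 1 with library totals as the scaling or without CN replicate 1, and 0 without E1 replicate 1 or with the 4 libraries of the contrast alone. Ribosomal protein genes have many processed copies in the genome, and how the counting treated reads that fit several places is not given in the sources used here.

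**Figure D4:**
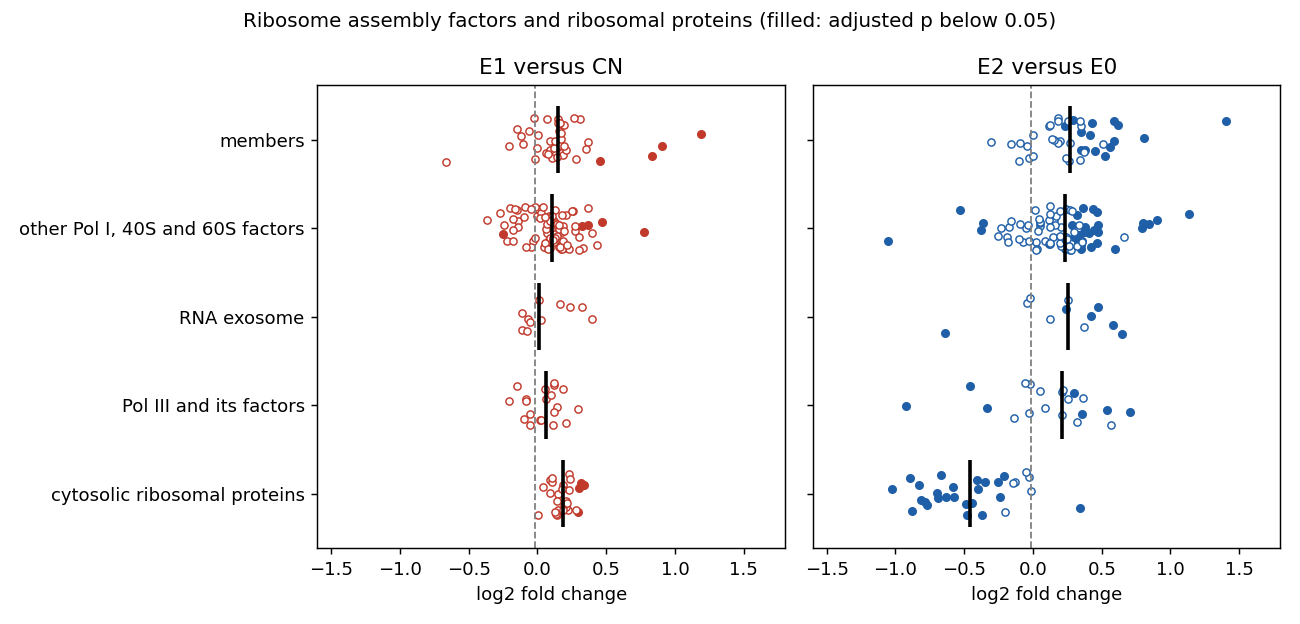
Log2 fold change of single genes in the 40 assembly genes (labelled members) and in 4 related lists, in E1 versus CN (left) and E2 versus E0 (right); filled points have an adjusted p below 0.05, black bars are list medians and the dashed line is the median of all genes tested. In E2 versus E0 the assembly genes and the related factors have medians of 0.21 to 0.27 and the ribosomal proteins -0.46.

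Markers of other cells also moved between E2 and E0, where 17% of all genes were called higher and 18.5% lower. Of 12 eosinophil markers 8 fell and 2 rose, and their sum was 4566 to 4624 CPM in E2, against 6987 to 7073 CPM in E0. The sums of 12 monocyte, macrophage and dendritic cell markers (5 higher, 6 lower) were 3783 to 3948 CPM in E2, against 2785 to 2791 CPM in E0. The median change of these 12 was -0.67, with 7 below 0, so the higher sum does not hold for most of them. The 12 neutrophil markers (0 higher, 5 lower by edgeR) summed to 930.7 to 1323 CPM in E2, against 2774 to 3472 CPM in E0, and the 6 basophil and mast cell markers (2 higher, 0 lower) to 215.3 to 248.6 CPM, against 74.3 to 94.45 CPM. The 6 NK cell markers (1 higher) summed to 43.2 to 47.1 CPM in E2, against 29.4 to 31.9 CPM in E0, and the 7 B cell markers (2 higher, 1 lower) to 131.6 to 164.3 CPM, against 259.6 to 271.7 CPM. The 5 measured T cell markers (1 higher, 1 lower) summed to 5.43 to 6.06 CPM in E2 and 5.41 to 6.58 CPM in E0. Of 18 cell cycle genes 3 rose (16.7%, beside 17% of all genes) and 0 fell by edgeR (6 and 0 at an unadjusted p below 0.05). The cell cycle genes summed to 210.3 CPM in E2 replicate 1 and 182.7 CPM in E2 replicate 2, against 183.1 and 157.1 CPM in E0. These ranges overlap, but within each replicate number E2 was above E0. The median change of the 18 genes was 0.29, with 15 positive, beside 0.27 for the 40 genes and -0.02 over all genes. With the replicate block 8 of the 18 were higher and 0 lower, beside 26% and 27.5% of all genes. In the first experiment 9.19% of all genes were called higher and 8.08% lower. Neutrophil markers (1 higher, 7 lower) summed to 1326 to 1789 CPM in E1, against 2656 to 3043 CPM in CN. Monocyte, macrophage and dendritic cell markers (5 higher, 2 lower) summed to 6545 to 7051 CPM in E1, against 2770 to 3105 CPM in CN. Eosinophil markers (0 higher by edgeR, 2 lower) summed to 5987 to 6915 CPM in E1, against 7651 to 7955 CPM in CN, and basophil and mast cell markers (1 higher, 1 lower) to 138.6 to 154 CPM, against 211.8 to 302.9 CPM. The 4 measured platelet and erythroid markers (1 higher in E2) summed to 245.2 to 260.1 CPM in E2, against 205.9 to 223.4 CPM in E0, and to 220 to 268.4 CPM in E1 and 203.9 to 236.9 CPM in CN, which overlap. No marker of these lists was at 0 in both libraries of a group. The part of other cells in the changes of the ribosome biogenesis genes was not tested.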

How the data were processed

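The authors deposited raw read counts per Ensembl gene for 8 libraries, made with STAR and featureCounts on mm10 per the submitters' processing notes. Tool versions, annotation and strand setting are not stated in what was used here. The labels name a stranded mRNA kit. One row without a gene name, equal to the column totals (100% of the counts), was left out. Of 15917 IDs, 15730 matched a symbol and 187 did not. Positions and exon lengths are from GENCODE M21 on mm10.

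Counts were filtered (filterByExpr, 4 genes removed), TMM-scaled and tested in R 4.3.3 with edgeR 4.0.16 (quasi-likelihood F test, two-sided, a mean for each group fitted to the 8 libraries together, leaving 4 residual degrees of freedom), with Benjamini-Hochberg adjustment over 15913 genes. The test was checked on simulated data. DESeq2 1.42.0 and limma 3.58.1 (voom) were alternatives. The deepest library resolved 0.0316 CPM and the shallowest 0.0493 CPM as the level of 3 counts, which covers counting error only.

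The genes, role groups and lists were chosen with earlier results of these data known, so their counts and medians are descriptions. Values in every library are given for the 10 called members with the largest change in either comparison, the extremes of each role group, and Ncl, Npm1, Fbl and Polr1a. From other lists up to 3 called genes each way at 10 CPM or more are named, with Myc. One result that this rule would name is not reported here.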

Additional observations from a re-analysis of the deposited data

Results flagged for a closer look

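For 6 of the 40 genes the response to the type 2 cytokines differed from the response to IFN-γ and TNF-α by the test of the difference itself (edgeR's quasi-likelihood test, adjusted over all genes). This is 15% of them, below the 25.2% called over all genes tested. The difference of log2 fold changes was 2.07 for Bysl, 0.61 for Fbl and 0.49 for Nop58, which responded more in E2 versus E0. It was -0.90 for Rcl1, -0.84 for Noc4l and -0.65 for Wdr43, which responded more in E1 versus CN. Fbl, Nop58 and Rcl1 lost the call of a difference in most fits with 1 library left out. The difference for Ccnd3, which overlaps Bysl on the opposite strand, was also 2.07 (adjusted p = 0.0010). The 2 responses were measured in different experiments, and IL-5 was present in both groups of the second one only.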

How the results depend on the processing

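Alternatives were other scalings, tools and filters, the 4 libraries of a contrast alone, a replicate block and leaving out each library. With library totals as the scaling, the median of the 40 genes was 0.057 in E1 versus CN and 0.208 for the difference of responses, and the calls over all genes in E1 versus CN were 1190 higher and 1891 lower in place of 1463 and 1286. Leaving out 1 library gave 4 to 5 called members in E1 versus CN (4 in the full fit), 4 to 12 in E2 versus E0 (15) and 3 to 10 for the difference (6). It gave medians of 0.09 to 0.18, 0.22 to 0.36 and 0.013 to 0.195, and 1904 to 2368, 3334 to 3984 and 2715 to 3768 called genes over the table. Bysl left out of the list, chosen after seeing the data, gave 4, 14 and 5 called members. Where a fit left 1 library in a group, that library was taken to vary like the others. No member called in the full fit changed sign in any of these fits.

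Libraries share replicate numbers, which the labels do not tie to animals and which go with sex in all 4 groups. Deviations from the group means correlated by 0.499 between same-numbered E1 and CN libraries by 0.586 between those of E2 and E0, and by 0.115 to 0.303 across the experiments. With a replicate block, fitted separately in the 2 experiments, the members called were 15 in E1 versus CN (14 higher), 27 in E2 versus E0 (26 higher) and 12 for the difference, and the genes called over the table were 5520, 8514 and 6821. Depth was not limiting for these genes, whose smallest count was 196.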

Other observations

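Further growth-related lists were measured beside the ribosome biogenesis genes. Of 16 nucleotide synthesis genes, 4 rose (25%) and 1 fell (6.25%) in E2 versus E0, with a median log2 fold change of 0.17. Of all genes tested, 17% rose and 18.5% fell. Nme1, a nucleoside diphosphate kinase, had 33.5 and 36.5 CPM in E2, against 16.2 and 18.4 CPM in E0 (1.01 ± 0.30, adjusted p = 0.0301). Adsl (0.52) and Impdh1 (0.45) of purine synthesis rose, and Pfas of the same pathway fell by 0.76. In E1 versus CN, Impdh2 rose by 0.34 and no other gene of the list was called.

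RNA polymerase III and its factors make the small 5S rRNA and transfer RNAs. Of 20 measured genes of this list, 4 rose (20%) and 3 fell (15%) in E2 versus E0 (median 0.21). These shares were near the 17% and 18.5% of all genes. Gtf3c5 rose by 0.70 and Gtf3c6 by 0.54, both subunits of the factor that binds those genes. Maf1, a repressor of the polymerase, had 82.1 and 82.4 CPM in E2, against 108 and 118 CPM in E0 (-0.46 ± 0.07, adjusted p = 0.00158), and Gtf3a fell by 0.34. Of 8 measured noncoding genes that host snoRNAs, 2 rose and 1 fell (Snhg20, -0.52).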
